A study of Homo sapiens with 6 samples.

Results

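The genes described here are 39 human genes of homologous recombination, the Fanconi anaemia pathway and the ATR and ATM replication stress response, chosen by their symbols from a fixed list. The list was drawn up with earlier results of these data known. All 39 genes were found among the 60623 genes of the count table. They were followed in bulk RNA sequencing of 6 libraries whose label is PANC-1, a long-established human line from a carcinoma of the pancreatic duct. In 3 libraries the cells carried a short hairpin RNA against STN1, and in 3 they carried a control hairpin described as scramble with a wild-type genotype. STN1 belongs to the CST complex, which helps to finish telomere replication and to restart stalled forks. The shSTN1-labelled libraries are all described as Sh4, a name that reads as 1 hairpin. The labels name no drug, dose or time, and they do not say whether a group was 1 clone. For 2 of the shSTN1-labelled libraries the genotype label reads STN2 and STN3 knockdown, while all 3 titles read shSTN1. Totals ran from 18813591 to 23336942 reads in the shSTN1-labelled libraries and from 17357223 to 20660453 in the control-labelled libraries. The labels say biological replicate but describe no separate cultures, and the p-values then cover only the spread of these 6 libraries, some of which may be technical.

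Homologous recombination repairs broken DNA by copying a sister molecule. The MRE11 complex finds the break, nucleases resect it, and BRCA1, PALB2 and BRCA2 prepare the exposed strand for exchange with the sister. The Fanconi anaemia pathway uses a ubiquitin ligase to mark the FANCD2-FANCI pair at crosslinked DNA, and the kinases ATR and ATM, with their targets CHEK1 and CHEK2, slow the cell cycle while forks and breaks are dealt with. Many of these genes are made mostly in late G1 and S phase, so their RNA follows how many cells are replicating as well as how each gene is regulated.

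The labels were checked first. STN1 itself had 303, 306 and 275 reads in the shSTN1-labelled libraries, against 387, 346 and 278 in the control-labelled libraries. That is 14.8 ± 0.793 and 16.4 ± 1.95 CPM (reads scaled to a common library size after TMM normalisation; SD, n = 3 each, as for every ± below), with overlapping groups, a log2 fold change of -0.15 and an edgeR adjusted p of 0.253. A lower STN1 level was therefore not detected with TMM scaling. An exact two-sided permutation test of these levels gave p = 0.3, where 3 against 3 cannot go below 0.1. With total counts in place of TMM scaling, edgeR called STN1 lower (-0.35, adjusted p = 0.0091). CDKN2A, a cell cycle inhibitor gene that PANC-1 is known to lack, was looked at after its values were seen. It had 0 reads in every shSTN1-labelled library, against 3968, 3882 and 3903 reads in the control-labelled libraries. Of 15 pancreatic carcinoma markers 12 were tested and all 12 were higher, with a summed level of 6729 to 6974 CPM in shSTN1-labelled libraries and 1090 to 1171 in control-labelled libraries. None of the 15 was at 0 in either group. The epithelial keratins KRT8 (3606 ± 66.8 against 605.7 ± 23.9 CPM), KRT19 (981.9 ± 10.4 against 174.9 ± 12.2) and KRT18 (964.9 ± 21.2 against 153.3 ± 5.12) led that list. Of 13 embryonic kidney line markers 12 were tested, 2 higher and 9 lower, and their sum was 168 to 171 CPM against 897 to 1012. Here IRS4 had 0, 3 and 0 reads in shSTN1-labelled libraries and 6578, 8457 and 5470 in control-labelled libraries, NEFM had 3, 0 and 1 against 2970, 3026 and 2411, and SALL1 was at 0 in the shSTN1-labelled libraries. ZIC2, at 61.0 ± 2.58 and 95.6 ± 9.03 CPM, was present in both groups. The 2 higher kidney markers, named after their values were seen, were PAX2 (62.4 ± 1.96 against 24.2 ± 0.742 CPM) and OSR1 (3.40 ± 0.644 against 0.443 ± 0.178). Fibroblast markers summed to 169 to 183 against 73.4 to 88.6 CPM, with 3 of 4 tested genes higher. COL1A1, COL3A1 and THY1 led them, at 123.7 ± 6.91, 27.996 ± 1.37 and 21.3 ± 0.831 CPM in shSTN1-labelled libraries and 46.7 ± 3.16, 22.8 ± 3.88 and 10.1 ± 1.23 in control-labelled libraries, and DCN was at 0 in the shSTN1-labelled libraries. Leukocyte markers stayed at 2.15 to 3.21 against 3.47 to 4.30 CPM in sum, with CD3E at 0 in both groups and PTPRC at 0 in the control-labelled libraries. Mitochondrially encoded genes took 7.84% to 8.28% of reads in the shSTN1-labelled libraries and 4.93% to 5.64% in the control-labelled libraries. The 3 control-labelled libraries were alike in this, so no result can be given without them, and an effect of the hairpin cannot be told apart from a difference between the cells of the 2 groups. In bulk RNA, fewer cells of a type or phase and less RNA per cell cannot be told apart either.

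Across the 39 genes the prevailing difference was a lower level in the shSTN1-labelled libraries. By edgeR's quasi-likelihood test, with an adjusted p under 0.05 over all genes, 26 of the 39 fell, 4 rose and 9 did not pass. Among all 17451 genes tested, 38.5% fell, 35.6% rose and 74.1% passed in either direction. The 39 genes thus passed about as often as genes in general (76.9%), but 66.7% of them were lower. Their median log2 fold change was -0.44, beside -0.03 for all genes, and single values ran from -2.22 (EXO1) to 0.81 (WEE1). At least 2-fold, 7 of the 39 genes fell, a share near the 19.0% of all genes, and 0 rose, against 15.7% of all genes. In 25 genes every shSTN1-labelled library lay below every control-labelled library, in 5 above, and in 9 the groups overlapped. Over all genes the groups did not overlap in 75.6%, below in 39% and above in 36.6%. Summed, the 39 genes took 1582 to 1654 CPM in the shSTN1-labelled libraries and 1981 to 2070 CPM in the control-labelled libraries. With total counts in place of TMM scaling, the median of all genes moved to -0.22, 32 of the genes were lower and 2 higher, 13 fell at least 2-fold, and 6 genes that did not pass with TMM were called lower: UBE2T (-0.33, adjusted p = 0.00109), BARD1 (-0.28, 0.0207), NBN (-0.28, 0.00649), FANCC (-0.27, 0.00899), ATR (-0.21, 0.0475) and TIMELESS (-0.19, 0.00625). The decreases of ATRIP (-0.53), MRE11 (-0.59), MDC1 (-0.57), XRCC3 (-0.43) and FANCL (-0.45) were each over 1.5 times as large there on the log2 scale, and the split over all genes was 4940 higher and 8060 lower, where it was 6209 and 6720 with TMM.

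**Figure D1:**
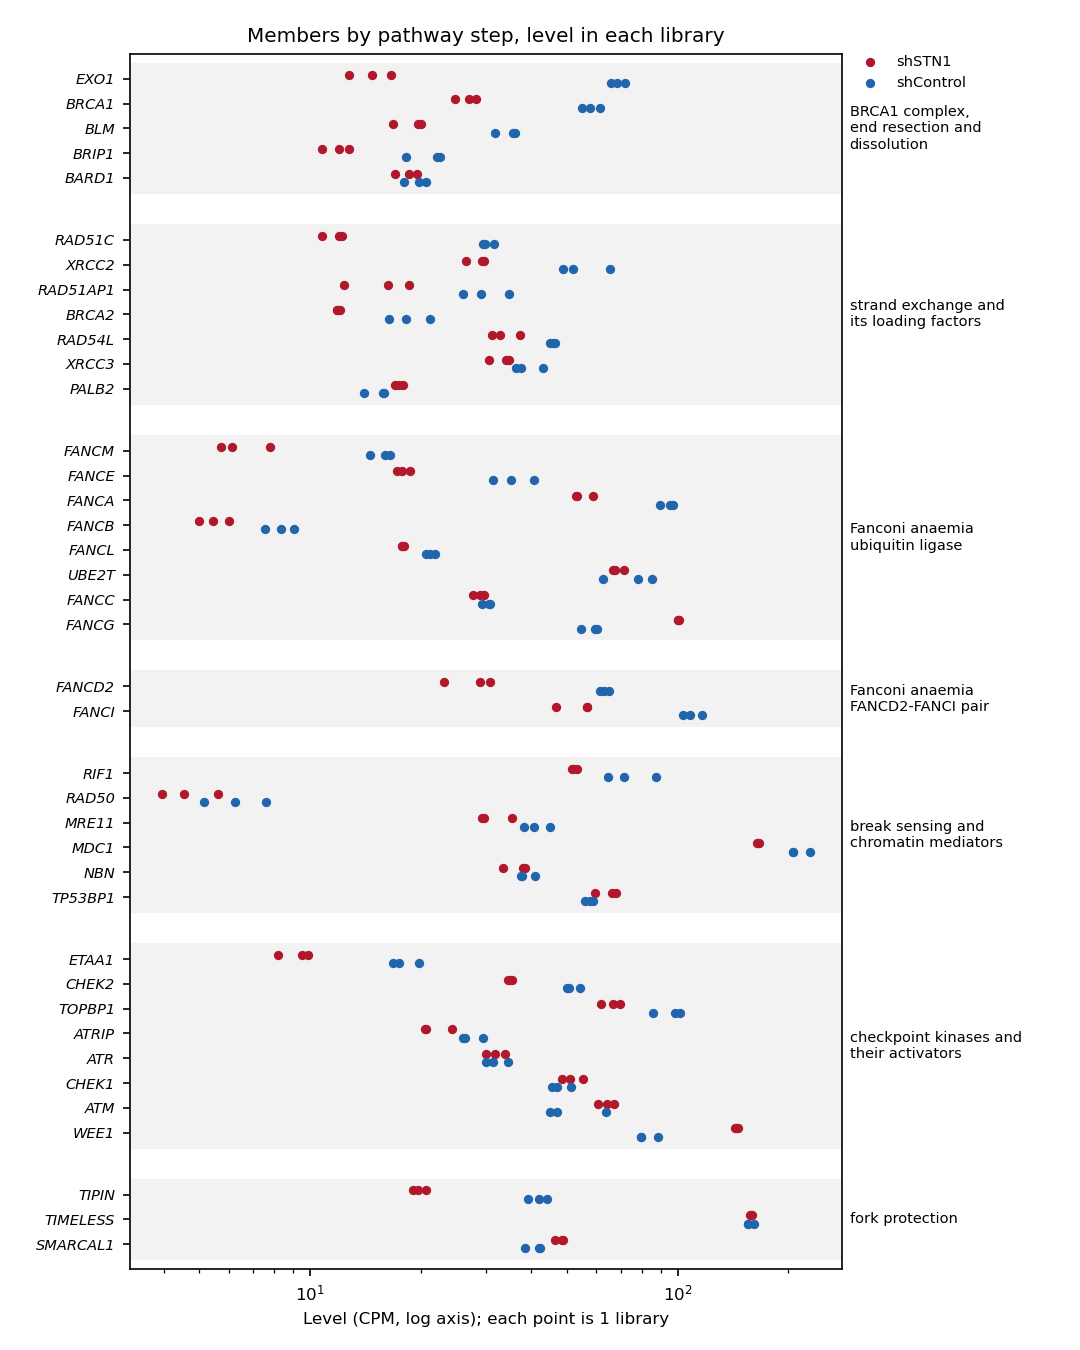
Level of each of the 39 genes in every library, grouped by pathway step; each point is 1 library and the horizontal axis is CPM on a log scale. EXO1, with 12.8 to 16.6 CPM in the shSTN1-labelled libraries and 65.8 to 71.9 in the control-labelled libraries, is the most separated gene, while the points of TIMELESS, ATR and NBN lie on top of each other.

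In break recognition and its chromatin scaffolds, 4 of 6 genes fell, 0 rose, and none reached 2-fold (median log2 fold change -0.38). In this step 66.7% passed, all lower, while 74.1% of all genes passed and 38.5% fell. For every step below, 19.0% of all genes fell at least 2-fold, and groups did not overlap in 75.6% of all genes. MRE11, the nuclease of the sensor complex, had 29.7, 35.4 and 29.3 CPM in the shSTN1-labelled libraries, against 40.6, 44.9 and 38.1 in the control-labelled libraries. The groups did not overlap, and MRE11 fell by 0.39 on the log2 scale (SE 0.111, adjusted p = 5.14e-04). NBN, which brings the complex to chromatin and to ATM, averaged 36.6 ± 2.66 and 38.7 ± 1.84 CPM with overlapping groups (log2 fold change -0.08, 95% interval -0.26 to 0.09, limma-voom). RAD50, the ATPase of the complex, passed at -0.42 (adjusted p = 0.0359) although its groups overlapped, at 3.96, 5.63 and 4.54 CPM against 5.15, 7.61 and 6.23. Its value is uncertain, since 79.7% of its exon bases are also exon bases of a readthrough gene on the same strand, and the call was lost without shSTN1 replicate 1 or 3 or control replicate 2 or 3 (adjusted p 0.054 to 0.224, with a log2 fold change of -0.28 without control replicate 2) and in DESeq2 (0.103).

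Downstream of the sensor, MDC1, the scaffold that reads the histone mark at breaks, had 166.6, 165.8 and 164.4 CPM in the shSTN1-labelled libraries and 206.2, 228.9 and 206.4 in the control-labelled libraries, a log2 difference of -0.37 (SE 0.0504, adjusted p = 4.78e-06). RIF1, which holds back resection, fell by 0.51, with 51.6, 52.0 and 53.2 CPM against 71.4, 87.1 and 64.8. TP53BP1, the chromatin reader that recruits RIF1, did not pass. It had 59.6, 68.0 and 66.3 CPM in the shSTN1-labelled libraries and 59.0, 57.7 and 56.0 in the control-labelled libraries, with every shSTN1-labelled library the higher, but the adjusted p was 0.0537 (log2 fold change 0.17, 95% interval 0.01 to 0.32). It passed without shSTN1 replicate 1 (adjusted p = 0.0198) and with a filter of 1 CPM (0.0443).

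Among 8 checkpoint kinases and activators 4 fell, 2 rose and 2 did not pass (median -0.17). The share that passed, 75%, was near the 74.1% of all genes, and 50% fell, beside 38.5%. ATR, the kinase of stalled forks, had 30.03, 31.7 and 33.8 CPM in the shSTN1-labelled libraries, against 30.03, 34.6 and 31.5 in the control-labelled libraries. Those ranges coincide, and the log2 fold change of -0.01 had a 95% interval of -0.20 to 0.17. Its obligate partner ATRIP fell by 0.33, to 21.8 ± 2.14 CPM against 27.4 ± 1.89 (adjusted p = 0.00482), with 27.9% of its exon bases shared with TREX1 on the same strand.

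Both ATR activators were lower. ETAA1, which acts at single-stranded DNA bound by RPA, had 9.86, 9.53 and 8.17 CPM in the shSTN1-labelled libraries, against 19.8, 16.8 and 17.5 in the control-labelled libraries, 50.9% of the control level (log2 fold change -0.97, SE 0.108, adjusted p = 2.33e-08). TOPBP1, the activator loaded with the checkpoint clamp, averaged 66.1 ± 3.95 against 95.2 ± 8.33 CPM (-0.53). Neither gene's groups overlapped.

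Of the effector kinases CHEK2 fell and CHEK1 did not pass. CHEK1, the ATR target, had 48.4, 55.2 and 50.8 CPM in the shSTN1-labelled libraries, against 51.3, 45.4 and 46.9 in the control-labelled libraries; these groups overlapped and the test did not pass (0.11, 95% interval -0.06 to 0.27). CHEK2, the ATM target, had 35.5, 34.6 and 34.9 CPM in shSTN1-labelled libraries against 54.1, 49.9 and 50.7 in control-labelled libraries, 67.8% of the control level (-0.56, SE 0.0376, adjusted p = 4.23e-07). WEE1, the kinase that restrains CDK1 and CDK2, was the gene that rose most of the 39. It had 143.1, 144.3 and 145.8 CPM in the shSTN1-labelled libraries and 79.5, 88.4 and 79.4 in the control-labelled libraries (log2 fold change 0.81, SE 0.0518, adjusted p = 2.4e-12). ATM, the kinase of broken ends, passed as higher at 0.30 (adjusted p = 0.00612), but 1 control-labelled library, at 63.8 CPM, lay within the shSTN1-labelled range of 60.6 to 67.3 while the others were at 44.997 and 46.8. Leaving out control replicate 1 or 3 ended that call (0.19 and 0.22, adjusted p 0.095 and 0.068), as did total counts (0.10, 0.370) and a test against a 1.2-fold change (0.215), while leaving out control replicate 2 gave 0.47.

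Of the 3 fork genes 1 fell, 1 rose and 1 did not pass (median 0.01). That is 66.7% passing, beside 74.1% of all genes. TIPIN fell while its partner TIMELESS did not pass. The pair travels with the replisome and helps pass the stall signal to CHEK1. TIPIN had 20.7, 19.6 and 19.1 CPM in the shSTN1-labelled libraries, against 44.2, 41.8 and 39.1 in the control-labelled libraries, 47.4% of the control level (-1.08, SE 0.0613, adjusted p = 5.24e-12). Of TIPIN exon bases 21.0% are shared with other genes on the same strand, most with RPL9P25. TIMELESS was at 159.2, 157.8 and 157.5 CPM against 155.6, 161.3 and 155.6 (0.01, 95% interval -0.12 to 0.13, adjusted p = 0.934). The sign of the TIMELESS value flipped with the 3 other scalings and without a low-count filter but not with a filter of 1 CPM, and total counts gave the called decrease stated above. SMARCAL1, a translocase that remodels stalled forks, rose slightly, at 47.7 ± 1.30 against 40.9 ± 2.07 CPM (0.22, adjusted p = 0.0168), and lost that call without shSTN1 replicate 3 (0.0533), without control replicate 2 (0.0781), with DESeq2 (0.0553), without a low-count filter (0.072) and with total counts (0.792).

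End resection and the BRCA1 complex held the gene with the largest decrease of all 39. Of 5 genes 4 fell, 2 of them at least 2-fold, and the median log2 fold change was -0.88. In this step 80% passed, all lower, while 74.1% of all genes passed and 38.5% fell. EXO1, the exonuclease of long-range resection, had 262, 363 and 259 reads in the shSTN1-labelled libraries, against 1493, 1471 and 1264 in the control-labelled libraries. That is 12.8, 16.6 and 14.7 CPM against 71.9, 65.8 and 68.5, or 21.4% of the control level (-2.22, SE 0.114, adjusted p = 7.65e-20). Its gene lies at chr1:241847967-241895148 (GRCh38).

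BRCA1, at chr17:43044295-43170245, had 27.0, 24.7 and 28.3 CPM in the shSTN1-labelled libraries, against 57.8, 61.5 and 54.8 in the control-labelled libraries, 46.0% of the control level (-1.12, SE 0.0741, adjusted p = 3.53e-13). BARD1, its partner in the ubiquitin ligase heterodimer, had 17.04, 18.6 and 19.6 CPM against 19.8, 20.6 and 17.99. The BARD1 groups overlapped (-0.08, 95% interval -0.30 to 0.13, adjusted p = 0.484). BRIP1, the helicase that binds BRCA1, averaged 11.8 ± 1.00 against 21.0 ± 2.40 CPM (-0.82), and BLM, the helicase of resection and of crossover-free dissolution, 18.8 ± 1.73 against 34.6 ± 2.40 CPM (-0.88). Neither helicase had overlapping groups.

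Strand exchange and its loading factors were mostly lower: 6 of 7 genes fell, 1 of them at least 2-fold, with a median log2 fold change of -0.65. In this step 85.7% passed, all lower, while 74.1% of all genes passed and 38.5% fell. RAD51C, a subunit of both complexes that the XRCC2 and XRCC3 proteins belong to, had 10.7, 12.2 and 11.97 CPM in the shSTN1-labelled libraries, against 31.6, 29.5 and 29.96 in the control-labelled libraries. Its level was 38.4% of the control level, the lowest share of the step (-1.38, SE 0.0644, adjusted p = 2.1e-13; chr17:58692573-58735611). XRCC2, of the larger of these complexes, had 26.6, 29.6 and 29.4 CPM against 51.7, 65.3 and 48.6 (-0.95, adjusted p = 2.32e-10). XRCC3, which pairs with RAD51C directly, was at 33.2 ± 2.30 against 38.95 ± 3.61 CPM (-0.23, adjusted p = 0.0264). That call is uncertain: 76.7% of XRCC3 exon bases lie in exons of KLC1 on the opposite strand, and it was lost without shSTN1 replicate 1 (0.145) and without control replicate 3 (0.115).

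BRCA2, a mediator of strand exchange that binds the resected end, had 11.9, 11.8 and 12.1 CPM in the shSTN1-labelled libraries, against 18.3, 21.2 and 16.4 in the control-labelled libraries, 64.1% of the control level (-0.65, SE 0.107, adjusted p = 1.36e-05). PALB2, the bridge between BRCA1 and BRCA2, did not pass. It had 16.995, 17.5 and 17.9 CPM against 15.9, 14.004 and 15.8, with every shSTN1-labelled library the higher (0.20, 95% interval -0.02 to 0.42, adjusted p = 0.109). Of the factors that help pair the strands, RAD51AP1 averaged 15.7 ± 3.11 against 30.02 ± 4.47 CPM (-0.93), and the translocase RAD54L 33.7 ± 3.13 against 45.6 ± 0.735 CPM (-0.44). Both fell without overlap.

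The Fanconi anaemia genes moved in both directions. Of all 10, 7 fell, 1 rose and 2 did not pass (median -0.69). The share that passed was 80%, beside 74.1% of all genes, and 70% fell, beside 38.5%. The substrate pair fell together. FANCD2 had 23.2, 28.95 and 30.9 CPM in the shSTN1-labelled libraries, against 63.2, 61.6 and 65.1 in the control-labelled libraries, 43.7% of the control level (log2 fold change -1.20, SE 0.127, adjusted p = 2.96e-13; chr3:10026414-10101930). FANCI, its clamp partner, had 46.6, 56.8 and 56.6 CPM against 108.1, 103.3 and 116.2, 48.8% of the control level (-1.03, SE 0.106, adjusted p = 2.48e-13).

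In the ligase, which assembles from 3 modules around the catalytic subunit FANCL, 5 of 8 genes fell and 1 rose (median -0.42). Of the 8, 75% passed and 62.5% fell, beside 74.1% and 38.5% of all genes. FANCM, the translocase that anchors the ligase on DNA, had 7.76, 6.14 and 5.73 CPM in the shSTN1-labelled libraries, against 16.5, 15.97 and 14.5 in the control-labelled libraries (41.8%; -1.26, SE 0.142, adjusted p = 8.88e-10). FANCE, which contacts FANCD2, had 17.3, 18.6 and 17.8 CPM against 31.4, 35.1 and 40.6 (-0.99), with no overlap. FANCC, which sits with FANCE in the same module, had 29.01, 27.7 and 29.7 CPM against 30.8, 29.4 and 30.6, overlapping and not past the test (-0.07, 95% interval -0.26 to 0.10).

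FANCG and FANCA, which share a module, were opposite. FANCG had 101.1, 100.3 and 99.98 CPM in the shSTN1-labelled libraries, against 60.2, 54.7 and 59.5 in the control-labelled libraries, 173% of the control level (0.79, SE 0.0436, adjusted p = 1.62e-11). FANCA had 53.0, 53.1 and 58.8 CPM against 89.3, 96.9 and 95.4, 58.5% of the control level (-0.77, SE 0.0613, adjusted p = 6e-11). Of FANCA exon bases 23.6% lie in exons on the opposite strand, most in those of ZNF276. In the catalytic module and its partner enzyme, FANCB averaged 5.48 ± 0.511 against 8.31 ± 0.746 CPM (-0.60), FANCL 17.9 ± 0.103 against 21.2 ± 0.566 CPM (-0.25, adjusted p = 0.0307), and the ubiquitin-conjugating enzyme UBE2T 68.7 ± 2.56 against 75.2 ± 11.4 CPM (-0.13, 95% interval -0.30 to 0.06). The FANCL call was lost without any 1 of the shSTN1 replicates and without control replicate 1 (adjusted p 0.0607 to 0.088), and UBE2T passed as lower without control replicate 2 (-0.26, adjusted p = 0.00368), besides total counts.

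**Figure D2:**
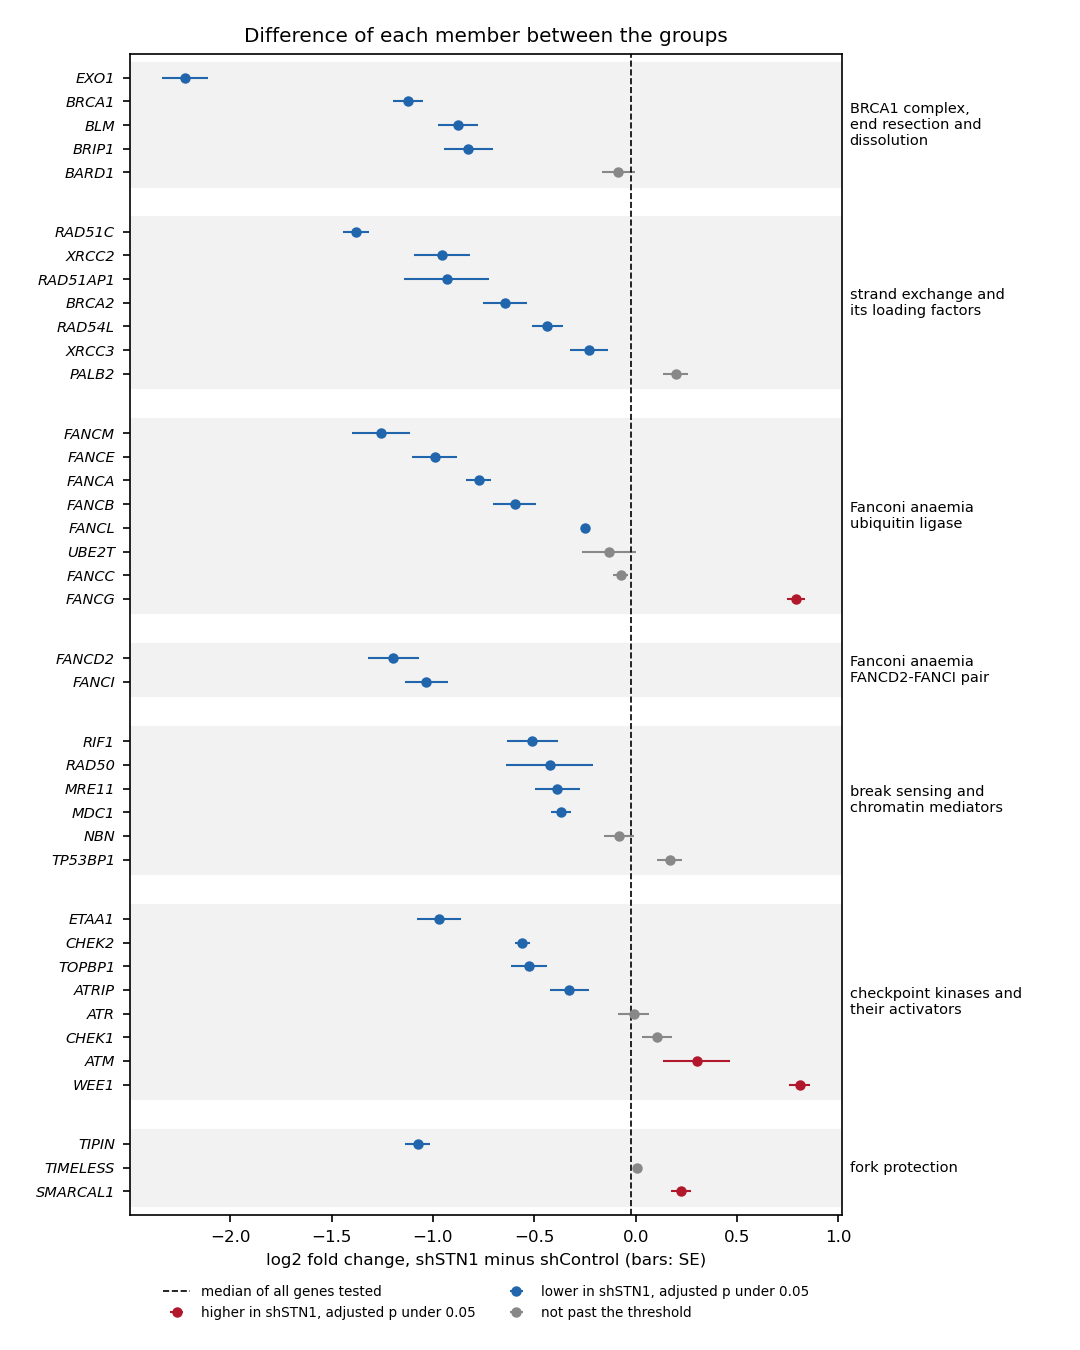
Log2 fold change of each gene, shSTN1-labelled minus control-labelled, with bars of 1 SE; colours give the edgeR call and the dashed line the median of all genes tested, -0.03. Genes near the dashed line stand beside partners below it, as BARD1 at -0.08 beside BRCA1 at -1.12, and FANCG at 0.79 stands opposite FANCM at -1.26.

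Reading partners against each other within a library needs no scaling between libraries. For 14 pairs the log2 ratio of their reads was compared by an exact two-sided permutation test, which cannot go below p = 0.1 here, so no pair could pass. In 10 pairs the groups did not overlap (exact p = 0.1, adjusted 0.14 over the pairs), and in 4 they did. The share over other pairs of genes was not computed, and of all genes taken singly 75.6% did not overlap. The count of 10 is therefore not read as a trait of these partners. TIMELESS over TIPIN was 2.94, 3.01 and 3.04 in the shSTN1-labelled libraries, against 1.82, 1.95 and 1.99 in the control-labelled libraries, or 7.99 reads of TIMELESS to each read of TIPIN against 3.77. The exon overlap of TIPIN stated above applies to this ratio. BRCA1 over BARD1 was 0.66, 0.41 and 0.53 against 1.54, 1.58 and 1.61, or 1.45 reads to 1 against 2.98. The largest difference of the 14 pairs was that of BLM over EXO1, with 0.40, 0.24 and 0.44 against -1.01, -0.86 and -1.11, a difference of 1.35 (SE 0.0928) and a change of sign: EXO1 had fewer reads than BLM in the shSTN1-labelled libraries and more in the control-labelled libraries.

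CHEK1 over CHEK2 and PALB2 over BRCA2 also changed sign. CHEK1 over CHEK2 was 0.45, 0.67 and 0.54 in the shSTN1-labelled libraries, against -0.08, -0.14 and -0.11 in the control-labelled libraries. PALB2 over BRCA2 was 0.52, 0.56 and 0.56 against -0.20, -0.59 and -0.05. XRCC2 over XRCC3 went below 0 in the shSTN1-labelled libraries (-0.20, -0.21 and -0.25 against 0.51, 0.80 and 0.17), with the reservation on XRCC3 above. Differences were smaller for TOPBP1 over ETAA1 (0.45, SE 0.135), ATM over ATR (0.33, SE 0.112), ATR over ATRIP (0.32, SE 0.0978) and FANCD2 over FANCI (-0.17, SE 0.0477). The FANCD2-FANCI ratio, 0.517 against 0.581 reads, had the smallest difference of the 10. The 4 overlapping pairs were UBE2T over FANCL (difference 0.13), MRE11 over RAD50 (0.03), NBN over RAD50 (0.34) and RAD51AP1 over RAD54L (-0.50), with exact p between 0.2 and 0.7. Leaving out 1 library moved them from 0.02 to 0.20, from -0.05 to 0.16, from 0.24 to 0.46 and from -0.68 to -0.26. The reservation on RAD50 above holds for both ratios with that gene.

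**Figure D3:**
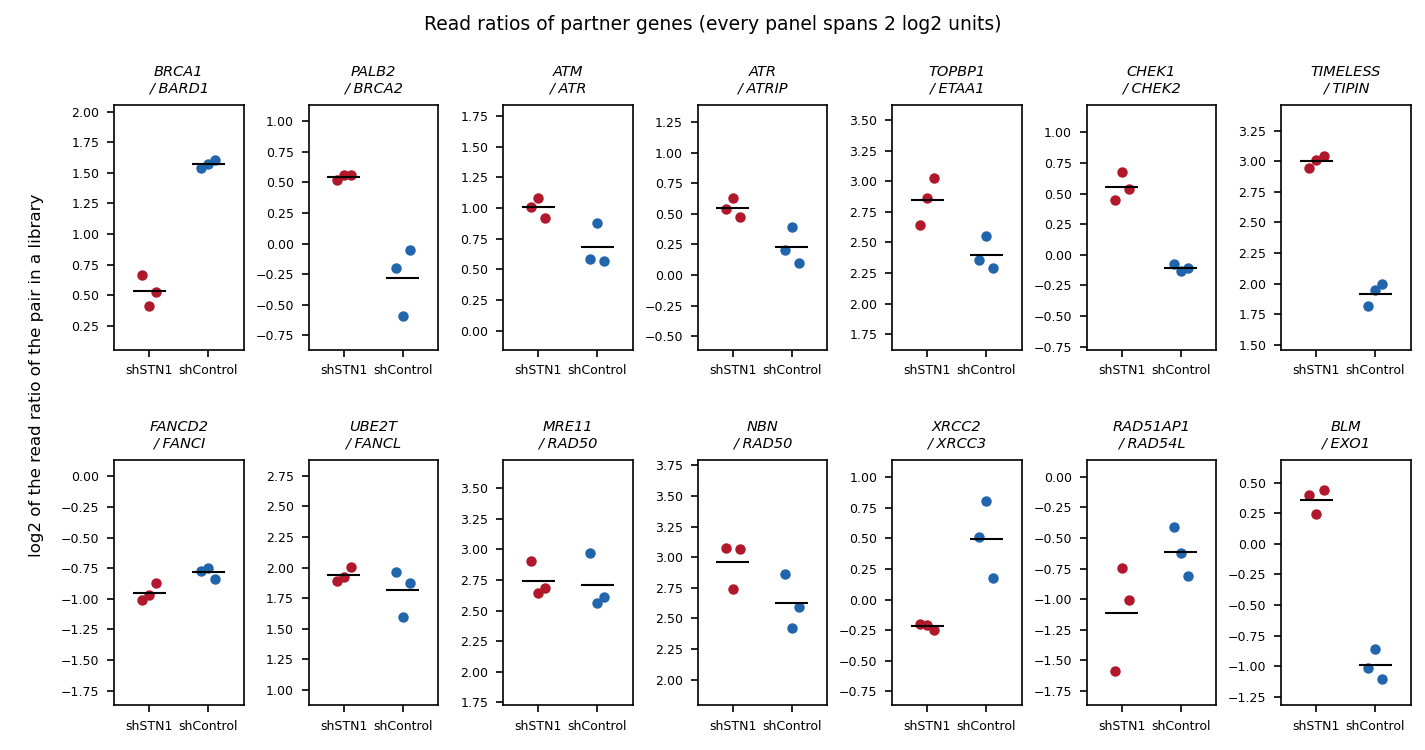
Log2 ratio of the reads of 2 partner genes within each library for 14 pairs, with shSTN1-labelled libraries left and control-labelled libraries right; points are libraries, lines are means, and every panel spans the same number of log2 units. The TIMELESS over TIPIN points, at 2.94 to 3.04 and 1.82 to 1.99, are an example of groups that do not overlap, and MRE11 over RAD50, with a difference of 0.03, of groups that do.

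To compare genes with each other, levels were set per exon length as TPM, which divides reads by exon length and by their sum in the library, and read only within a group. Exon length took in every annotated exon of a gene, not 1 transcript, so the ranks below depend on the annotation. UBE2T was the highest of the 39 in both groups, at 122 ± 5.28 TPM in the shSTN1-labelled libraries and 170 ± 22.2 in the control-labelled libraries, and RAD50 the lowest, at 1.41 ± 0.270 and 2.43 ± 0.529. The RAD50 rank is uncertain, since 79.7% of its exon bases are also exon bases of another gene on the same strand. In the shSTN1-labelled libraries FANCG (81.3 ± 0.587) and TIMELESS (79.5 ± 0.555) followed UBE2T and differed by more than their SDs, then MDC1 (60.1 ± 0.557) and WEE1 (45.7 ± 0.869). In the control-labelled libraries TIMELESS (101.3 ± 4.42) and MDC1 (99.3 ± 8.35) did not differ beyond their SD and were followed by EXO1 (62.05 ± 1.43) and FANCG (60.1 ± 1.78). EXO1 thus stood at rank 24 in the shSTN1-labelled libraries, with 10.4 ± 1.47 TPM, and at rank 4 in the control-labelled libraries. BRCA1 stood at rank 27 against rank 20, and WEE1 at rank 5 against rank 15. Over the 39 genes, the log2 fold change had a Spearman correlation of 0.12 with exon length and 0.07 with the level in the control-labelled libraries, and over 17293 genes -0.09 and -0.11. These are correlations across genes, which are not independent replicates.

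E2F transcription factors switch on many S phase genes by binding sites near their start. The letters of 4 E2F-type motifs, TTTCCCGC, TTTCGCGC, TTTGCCGC and TTTGGCGC, were searched on both strands of RefSeq promoter windows (GRCh38.p14, 300 bases, from 250 before to 50 after each start), which 36 of the 39 genes had (all but WEE1, FANCI and NBN). Matches may overlap, and a window counts once however many it holds. A match stood in 6 of 31 windows of genes that fell (19.4%), in 1 of 16 windows of the other genes (6.25%) and in 3.31% of all 35116 windows. All windows covered 27305 genes, more than the 17451 tested. Their shares, here and for the motifs below, are therefore not a like background for the 39 genes. The matching genes that fell were EXO1, FANCA, FANCD2, TIPIN, TOPBP1 and XRCC2, and the matching gene that did not pass was FANCC. Below are 3 of the genes that fell and FANCC, which has the letters at 2 places but overlapping levels, so that both outcomes can be seen beside the motif. Each sequence is the coding strand, 190 bases before to 30 bases after the start, with the matches on either strand in capitals.
EXO1: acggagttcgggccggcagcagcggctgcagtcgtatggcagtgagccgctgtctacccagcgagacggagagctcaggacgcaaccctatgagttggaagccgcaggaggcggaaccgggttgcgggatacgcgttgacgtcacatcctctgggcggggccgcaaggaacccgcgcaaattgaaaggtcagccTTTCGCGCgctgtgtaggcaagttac
FANCD2: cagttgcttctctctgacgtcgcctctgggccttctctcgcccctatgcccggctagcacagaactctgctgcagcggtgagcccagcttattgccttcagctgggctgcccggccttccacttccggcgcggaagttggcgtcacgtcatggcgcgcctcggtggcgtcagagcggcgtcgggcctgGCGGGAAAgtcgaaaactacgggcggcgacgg
XRCC2: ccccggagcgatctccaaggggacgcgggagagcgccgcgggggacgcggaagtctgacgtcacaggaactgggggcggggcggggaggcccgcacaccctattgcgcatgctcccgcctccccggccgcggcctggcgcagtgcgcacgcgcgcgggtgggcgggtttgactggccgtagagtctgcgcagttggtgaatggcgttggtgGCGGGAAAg
FANCC: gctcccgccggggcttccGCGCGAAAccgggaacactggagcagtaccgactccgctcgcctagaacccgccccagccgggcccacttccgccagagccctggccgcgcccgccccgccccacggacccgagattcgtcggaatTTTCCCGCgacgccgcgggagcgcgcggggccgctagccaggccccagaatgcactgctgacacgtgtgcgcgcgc
The windows are chr1:241848014-241848233 (plus strand) for EXO1, chr3:10026247-10026466 (plus) for FANCD2, chr7:152676112-152676331 (minus) for XRCC2 and chr9:95317680-95317899 (minus) for FANCC. In EXO1 the match begins 4 bases after the first transcribed base and in XRCC2 21 bases after it. In FANCD2 it begins 2 bases before it, and in FANCC 172 and 46 bases before. The CHR letters TTTGAA and TTCGAA, known from genes of G2 and mitosis, stood in 9.68% of windows of genes that fell, 18.8% of those of the other genes and 16.4% of all windows. CCAAT stood in 54.8%, 62.5% and 34.6%. These matches are letters in a window and were not measured as binding.

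Position on the chromosome was looked at by setting each gene beside the tested genes within 2 Mb of it. The neighbours' median log2 fold change ran from -0.85 (FANCB) to 1.00 (WEE1), over 2 to 117 neighbours. WEE1 (0.81) lay among 38 neighbours with a median of 1.00, of which 31 were higher, and FANCG (0.79) among 70 with a median of 0.46. The 2 genes that rose most of the 39 thus lay where their neighbours were higher too, while ATM (0.30) and SMARCAL1 (0.22) lay among neighbours with medians of -0.40 and -0.24. At the low end, EXO1 (-2.22) had 12 neighbours with a median of -0.75 and BRCA1 (-1.12) had 116 with a median of -0.45. Among the 26 genes that fell, the neighbours' median was above 0 for 13 and below 0 for 13. Of all 39 genes, 30 lay below their neighbours' median. Of the 26 that fell 25 did, FANCB at -0.60 being the exception. That count is partly set by the choice of fallen genes, since one with a neighbours' median above 0 must lie below it. Across the 39 genes the Spearman correlation between a gene and its neighbours was 0.36, as a description, since some share neighbours. The part of the chromosomal region in these values was not tested.

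**Figure D4:**
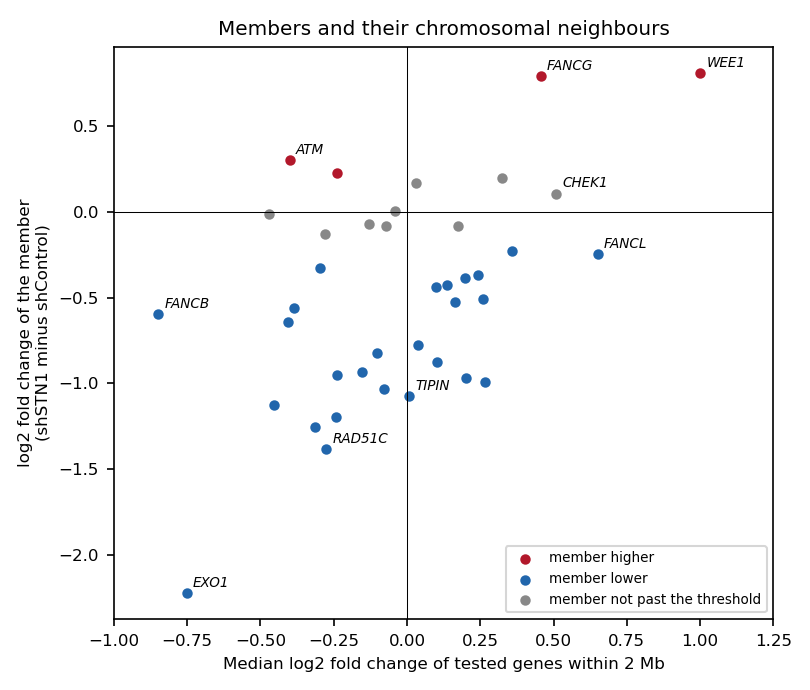
Log2 fold change of each gene (vertical axis, shSTN1-labelled minus control-labelled) against the median log2 fold change of the tested genes within 2 Mb (horizontal axis); each point is 1 gene, coloured by its edgeR call. WEE1 and FANCG lie at the upper right, at 1.00 and 0.46 on the horizontal axis, and the 26 genes that fell are spread on both sides of 0.

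Beyond these 39 genes, 62 other genes of the same pathways split more evenly: 17 rose (27.4%), 27 fell (43.5%) and 18 did not pass (median -0.08). Of all genes 35.6% rose and 38.5% fell. All lists here, and the replication and mitosis lists below, were chosen with earlier results of these data known. A difference in split between lists cannot be told apart from that choice. Of 28 other recombination genes 6 rose and 13 fell, of 21 other checkpoint and fork genes 4 and 9, and of 13 other Fanconi anaemia genes 7 and 5 (median 0.58). The 4 highest were FANCF, the ligase subunit that joins its modules (16.6 ± 3.36 against 4.03 ± 0.530 CPM, log2 fold change 2.05), FAAP100, a scaffold of the catalytic module (210.2 ± 4.58 against 83.7 ± 8.51, 1.33), the nuclease subunit MUS81 (105.5 ± 3.08 against 51.8 ± 0.838, 1.03) and the FANCM partner CENPS (2.74 ± 0.287 against 1.36 ± 0.144, 1.00). CENPS was low in both groups, and exon overlap with other genes was computed only for the 39 genes. FANCF and FAAP100 therefore rose where FANCM, FANCE and FANCA of the same ligase fell. The 4 lowest were RADX, a single-stranded DNA binding protein of forks (5.87 ± 1.19 against 68.0 ± 1.79 CPM, -3.53), the CDK-activating phosphatase CDC25A (29.3 ± 1.30 against 163.9 ± 7.28, -2.48), the break-site ubiquitin ligase RNF8 (15.2 ± 2.46 against 42.2 ± 0.926, -1.47) and USP1, which removes ubiquitin from FANCD2 (55.1 ± 5.28 against 127.5 ± 14.5, -1.21). CDC25A and WEE1, which act in opposite directions on CDK activity, were thus lower and higher.

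Replication and mitosis genes give the cell cycle context. Of 39 replication genes 29 fell and 4 rose (74.4% and 10.3%; median -0.62), with a sum of 3775 to 3822 CPM in the shSTN1-labelled libraries and 5433 to 5609 in the control-labelled libraries. The origin licensing factor CDT1 (61.6 ± 2.54 against 211.2 ± 16.8 CPM, -1.78) and the polymerase subunit POLA1 (16.7 ± 1.13 against 50.8 ± 4.13, -1.61) were the lowest. The nucleotide synthesis genes RRM2 (379.6 ± 7.17 against 254.3 ± 14.4, 0.58) and TYMS (140.5 ± 2.91 against 97.4 ± 4.19, 0.53) were the highest. Of 30 mitosis genes 13 rose and 9 fell (43.3% and 30%; median 0.08), with a sum of 4117 to 4324 CPM against 3330 to 3410. ANLN, of the cytokinetic ring (213.6 ± 6.46 against 70.8 ± 7.36 CPM, 1.59), and cyclin B1, CCNB1 (380.2 ± 17.7 against 190.9 ± 13.8, 0.99), were the highest, and cyclin A2, CCNA2 (62.7 ± 5.07 against 105.7 ± 1.40, -0.76), and the kinetochore motor CENPE (32.6 ± 3.82 against 52.5 ± 7.44, -0.69) the lowest. The 39 recombination and replication stress genes moved in the direction of the replication genes, and the part of cell cycle composition in their values was not tested.

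**Figure D5:**
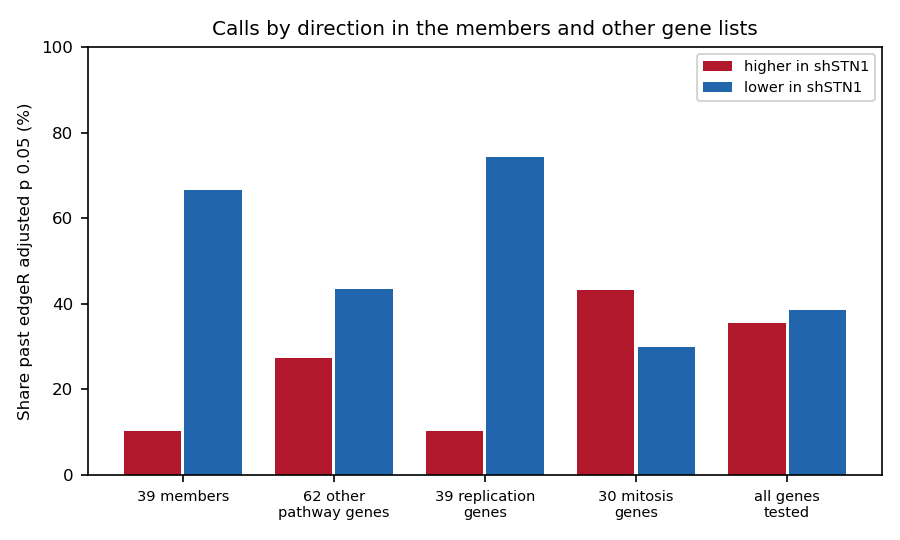
Share of genes past an edgeR adjusted p of 0.05 (percent) by direction, higher or lower with shSTN1 as labelled, for the 39 genes, 62 other pathway genes, 39 replication genes, 30 mitosis genes and all genes tested. The 39 genes (10.3% higher, 66.7% lower) resemble the replication genes (10.3% and 74.4%) in split, while all genes stand at 35.6% and 38.5%.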

How the data were processed

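RNA of 3 shSTN1-labelled and 3 control-labelled libraries was extracted with Trizol and made into libraries with NEBNext Ultra, per the labels' protocols. The authors deposited raw counts of reads per gene, made with cutadapt, FastQC, STAR 2.7.2b, featureCounts 2.0.1 and GRCh38, per the submitters' processing notes. With annotation release and strand setting not given in the sources used here, overlapping genes may share reads. After XRCC3, the largest shares of exon bases in opposite-strand exons were those of TP53BP1 (28.7%), RAD54L (25.1%), FANCA (23.6%), FANCL (19.7%) and ATR (16.4%). From 60668 rows, 45 second copies of pseudoautosomal genes were left out, and 58516 of the 60623 kept had coordinates and exon lengths in GENCODE 29. All 211 listed symbols were found. Depth was 17357223 to 23336942 reads per library, and the 39 genes had 80 to 5117 reads per library (median 722.5), so counting error is largest for the lowest of them.

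Counts were fitted with edgeR 4.0.16 in R 4.3.3 (filterByExpr, TMM, robust quasi-likelihood test, no covariates), with Benjamini-Hochberg adjustment over 17451 genes. SEs are of the difference of group means of log2 CPM (prior count 2). Intervals are 95% limma-voom (limma 3.58.1). Pair ratios (prior count 0.5) were tested with scipy 1.17.1. The test was tried on simulated data first. The genes, lists and pairs were chosen with earlier results of these data known. Besides the 39 genes, STN1 and the markers highest or at 0, the text names the 4 highest and 4 lowest called genes of the other pathway list and the 2 at each end of the replication and mitosis lists.

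Same-numbered libraries did not deviate together (r of -0.0123, 0.0171 and -0.0337), so replicate numbers were not taken as pairs. Alternatives were RLE, upper-quartile and no scaling, 2 filters, DESeq2 1.42.0, limma-voom, glmTreat against a 1.2-fold change, the replicate block, a threshold of 0.01 and leaving out each library.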

Additional observations from a re-analysis of the deposited data

How the results depend on the processing

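The 30 calls among the 39 genes were all kept with RLE and upper-quartile factors, limma-voom and the replicate block, which gave 30 calls among the 39 genes and 12742 among all genes. Replicate numbers were not taken as pairs, and the block changed none of these 30 calls. DESeq2 gave 28 and 12636, and an adjusted p under 0.01 gave 26, and a filter of 1 CPM gave 31. With total counts 34 passed, 2 higher, 13 at least 2-fold, and STN1 became a call (-0.35, adjusted p = 0.0091). CHEK1 (-0.093), TP53BP1 (-0.031), PALB2 (-0.00038) and TIMELESS (-0.19) turned negative there, and TIMELESS also with RLE (-0.00098) and upper-quartile factors (-0.028), without a filter (-0.024) and in DESeq2 (-0.020). The cause was not tested beyond the shift of the median of all genes, from -0.03 to -0.22 with total counts. Against a 1.2-fold change, 23 of the 39 genes (2 higher) and 11 mitosis genes passed. Without 1 library at a time, the 39 genes gave 27 to 29 calls, 3 to 5 higher and 23 to 26 lower, 7 to 10 at least 2-fold, and 12586 to 12857 calls over all genes. STN1 ran from -0.22 to -0.06, ATR from -0.070 to 0.037, TIMELESS from -0.016 to 0.016, and MRE11 over RAD50 from -0.047 to 0.16. The pairs that did not overlap numbered 10 to 13, a count that leaving out a library cannot lower. Of single-gene values under the alternatives, 574 kept direction and call, 30 kept direction and lost the call, 8 kept direction and gained one, and 12 turned sign, of which TIMELESS with total counts was also a gained call. With 3 libraries a group, the 95% intervals given above and the scaling limit what can be said of ATR, BARD1, NBN and FANCC, which passed as lower with total counts.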
